A study of Mus musculus with 2 samples.

Results

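The microRNA genes Mir99a, Mir99b, Mir100, Mir125a, Mir125b-1 and Mir125b-2 are the partners of let-7 in 3 paralogous clusters of the mouse genome. They were taken by name from the GENCODE mouse release 21 annotation, and all 6 were found among the 2202 microRNA genes of the files. The 6 genes held 3.96% of all own-strand microRNA counts in the library of replicate 2 and 5.66% in that of replicate 1, with exact 95% Clopper-Pearson intervals of 3.93 to 3.98 and 5.62 to 5.69. The mean was 4.81% ± 1.20 (SD, n = 2).

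Small RNA was sequenced from the gastrocnemius, the large calf muscle, of female B6CASTF1/J mice aged 2 months, a hybrid whose parents are of the strains C57BL/6J and CAST/EiJ. The 1 group has 2 libraries, labelled biological replicates 2 and 1, and there is no second condition. The labels number 2 animals, yet a single donor code stands on both, so the difference between these libraries may be technical. The p-values set that difference against counting error only and measure no spread between animals. Replicate 2 had 2291821 own-strand counts and replicate 1 had 1950204, so that 1 count was worth 0.436 and 0.513 counts per 1000000 own-strand counts (CPM).

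A microRNA guides silencing complexes to messenger RNAs that pair with its seed, bases 2 to 8 counted from the 5′ end. The miR-100, let-7 and miR-125 genes lie together in many animals. The miR-125 family is the vertebrate counterpart of lin-4, which with let-7 times larval development in Caenorhabditis elegans. In mammalian cells miR-99 and miR-100 are known for repressing Mtor, the kinase of growth signalling. In cultured mouse myoblasts miR-125b is known for repressing Igf2, a growth factor of muscle differentiation.

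The mature 5p sequences are shown because they divide the members into 2 seed families and show which genes share a product. They come from RefSeq on the GRCm38.p6 build, which matched all 6 members, and capitals mark the seed.
miR-99a-5p of Mir99a: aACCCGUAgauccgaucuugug
miR-100-5p of Mir100: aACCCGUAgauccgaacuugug
miR-99b-5p of Mir99b: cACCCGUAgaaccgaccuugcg
miR-125a-5p of Mir125a: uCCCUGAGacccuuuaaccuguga
miR-125b-5p of Mir125b-1 and Mir125b-2: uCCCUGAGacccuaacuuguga

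Mir99a, Mir100 and Mir99b made up the whole family with the seed ACCCGUA in the table. Counted from 1 at the 5′ end, miR-99a-5p and miR-100-5p differed at 1 position, U16A. From miR-99a-5p to miR-99b-5p there were 4 differences, A1C, U11A, U16C and U21C, and all of them lie outside the seed. The products of the miR-125 genes share the seed CCCUGAG, and miR-125a-5p matched miR-125b-5p over the first 13 bases. The whole of miR-125b-5p occurs in both Mir125b-1 and Mir125b-2, so a read of just this sequence cannot be placed in 1 of them. Their 3p products, shown because they tell the genes apart, each occurred in 1 microRNA gene.
miR-125b-1-3p of Mir125b-1: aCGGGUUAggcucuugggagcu
miR-125b-2-3p of Mir125b-2: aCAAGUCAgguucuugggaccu

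The let-7 partners carry another seed, GAGGUAG, shown here for 2 of them.
let-7c-5p of Mirlet7c-1: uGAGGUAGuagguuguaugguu
let-7e-5p of Mirlet7e: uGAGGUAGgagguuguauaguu

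In the mm10 assembly all members lie on the plus strand. Mir99a (ENSMUSG00000065530.1) is on chromosome 16 from 77598936 to 77599000, and Mir125b-2 (ENSMUSG00000065472.1) from 77646273 to 77646343. Both are in introns of the long noncoding gene Mir99ahg, and the last 4 bases of Mir125b-2 overlap an exon of C130023A14Rik. Mir99a also lies in an intron of Gm11146 on the other strand. Mir100 (ENSMUSG00000093011.1) is on chromosome 9 from 41531425 to 41531504, and Mir125b-1 (ENSMUSG00000093354.1) from 41581926 to 41582002. Both are in introns of the noncoding genes 3110039I08Rik and Gm49317. Mir125b-1 is also inside an exon of Gm28119, and Mir100 inside an exon of Gm48742 on the other strand. Mir99b (ENSMUSG00000065396.1) is on chromosome 17 from 17830188 to 17830257, in an intron of the protein-coding gene Spaca6. Mir125a (ENSMUSG00000065479.2) follows in the same gene from 17830812 to 17830879, and 47 of its bases overlap an annotated exon.

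The order within each cluster was the same, with the miR-99 type gene first, then let-7, then miR-125. The chromosome 17 cluster is compact, with all of its genes within 692 bp. On chromosomes 16 and 9 the cluster spans 47408 and 50578 bp, and the miR-125 gene lies 46522 and 45114 bp beyond its let-7 neighbour. The map of the clusters shows this spacing beside the level of each gene.

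**Figure D1:**
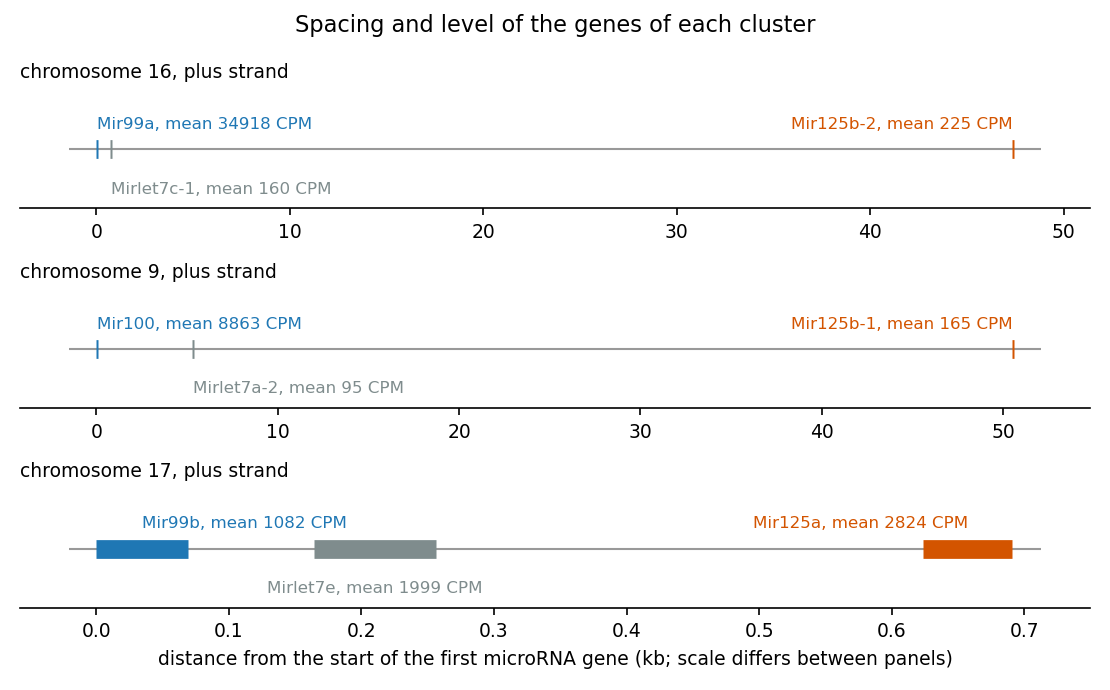
Position of the microRNA genes of each cluster, as distance in kb from the start of the first gene, with the mean CPM of each over the libraries. The scale differs between panels: the chromosome 17 genes lie within 692 bp, while Mir125b-2 and Mir125b-1 lie over 45 kb from their let-7 neighbours.

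The library values that bear on these levels are few. Reads with more than 1 alignment, which the files assign to no gene, made up 72.3% of the reads listed in replicate 2 and 70.1% in replicate 1. A gene was called detected at 10 or more own-strand counts in each library, which 278 genes reached, all 6 members among them. The striated muscle markers were all detected, 9 of 9, and summed to 4.65% of counts in replicate 2 and 2.79% in replicate 1. Most of this was Mir206, at 41933.5 of 46546.8 CPM in replicate 2 and 26708 of 27944.3 CPM in replicate 1. Mir1a-1 and Mir1a-2 share 28 nt with another microRNA gene, and Mir133a-1 and Mir133a-2 share 31 nt. Reads of these stretches may be missing from the sum, and their number was not tested. Markers of smooth muscle summed to 9.73% and 20.3% (2 of 2 detected), and Mir126a of endothelium to 15.7% and 12.1%. Fibroblast (3 of 4 detected), leukocyte (4 of 5 listed), red cell (2 of 2) and neural or glial markers (1 of 8) each summed to at most 0.315% in either library. Of the neural and glial genes, 6 were at 0. Leukocyte Mir142a was not found under that name. These are bulk samples, in which fewer cells of a type and less RNA per cell cannot be told apart.

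Mir99a was the highest member by far. It had 63673 counts in replicate 2 and 82014 in replicate 1, which is 27783 and 42054 CPM. Its mean of 34918 ± 10091 CPM (SD, n = 2) placed it at rank 8 of all microRNA genes, at rank 11 in replicate 2 and rank 5 in replicate 1. The second, Mir100, whose main product differs from that of Mir99a at 1 base, had 19562 and 17922 counts, or 8536 and 9190 CPM. It was at rank 20 in both libraries with a mean of 8863 ± 463 CPM (SD, n = 2), and its SD was the smallest of the members relative to the mean, at 5.22%. Mir99b, the third gene of this seed family, had 2129 and 2409 counts, which is 929 CPM in replicate 2 and 1235 CPM in replicate 1. Its mean was 1082 ± 217 CPM (SD, n = 2).

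The miR-125 genes were counted lower as a family. Reads of miR-125b-5p that could not be placed in 1 gene are missing from Mir125b-2 and Mir125b-1, and their number was not tested. Mir125a had 4570 counts in replicate 2 and 7127 in replicate 1, which is 1994 and 3654 CPM. It showed the widest relative spread of the members, with an SD of 1174 CPM around a mean of 2824 CPM (n = 2), or 41.6% of the mean. Mir125b-2 had 457 and 488 counts, or 199 and 250 CPM, with a mean of 225 ± 35.9 CPM (SD, n = 2). Mir125b-1 had 333 and 359 counts, or 145 and 184 CPM, with a mean of 165 ± 27.4 CPM (SD, n = 2). The ranges of the pair did not overlap, but each is a range over only 2 libraries.

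By these counts, which leave out reads that aligned to several places, the members fell in the same order in both libraries. It was Mir99a, Mir100, Mir125a, Mir99b, Mir125b-2 and Mir125b-1. A read of a microRNA covers most of the mature product, so CPM was not divided by gene length for this order. Per 100 nt of annotated gene the order was the same, from 53721 down to 214 CPM per 100 nt in the mean. The ranges of neighbours in the order did not overlap. All counts lay on the genes' own strand, and reads on the opposite strand numbered 0 for each member in each library.

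**Figure D2:**
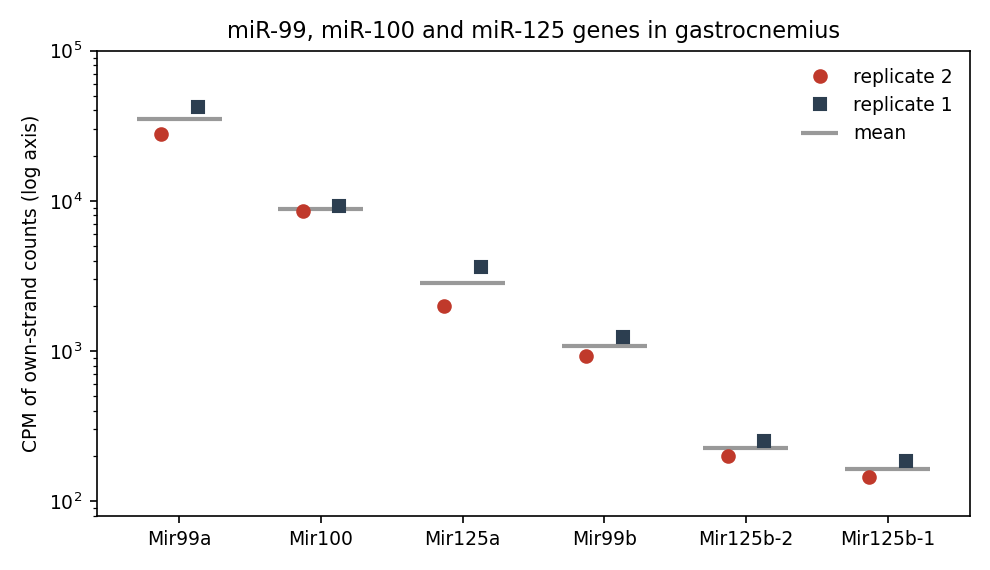
CPM of own-strand counts on a log axis for each member, with 1 point per library and the mean of both as a bar. Mir99a lies highest, at 27783 CPM in replicate 2 and 42054 CPM in replicate 1, and Mir125b-1 lowest, at 145 and 184 CPM. Reads that aligned to several places, among them any such reads of Mir125b-1 and Mir125b-2, are not counted.

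Summed by seed, Mir99a, Mir100 and Mir99b took 3.72% (3.70 to 3.75) of the counts of replicate 2 and 5.25% (5.22 to 5.28) of those of replicate 1. Mir99a made up 74.6% of this family in replicate 2 and 80.1% in replicate 1, and Mir100 made up 22.9% and 17.5%. Mir99b added 2.49% and 2.35%. Mir125a, Mir125b-1 and Mir125b-2 took 0.234% (0.228 to 0.240) of the counts of replicate 2 and 0.409% (0.400 to 0.418) of those of replicate 1. Mir125a made up 85.3% and 89.4% of these, although reads of miR-125b-5p that could not be placed in 1 gene are missing from the other pair. All of these are exact 95% intervals for counting error alone, because copies made in amplification are not separate molecules.

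Other genes in the RefSeq table carry the miR-125 seed as well. Mir351, on the X chromosome, had 785 counts in replicate 2 and 572 in replicate 1, or 343 and 293 CPM. By counts it lay above Mir125b-2 and Mir125b-1 and below Mir125a. The counts of Mir125b-2 and Mir125b-1 lack the reads of miR-125b-5p that could not be placed in 1 gene. Mir6394 and Mir6367 had 0 counts in both libraries, against a floor of 3 counts, which is 1.31 CPM in replicate 2 and 1.54 CPM in replicate 1. The miR-10 genes have a related product whose seed, ACCCUGU, is not that of miR-100. Mir10b had 20281 and 14918 CPM and Mir10a 5349 and 5816 CPM, so that the pair took 2.56% and 2.07% of counts.

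Members that share long stretches with another microRNA gene had low counts. The longest stretch that Mir125b-1 and Mir125b-2 have in common with any other microRNA gene, on either strand, was 24 nt, and they have it from each other. It was 16 nt for Mir99a and Mir100, also with each other, 14 nt for Mir125a and 11 nt for Mir99b. Among the let-7 partners it was 23 nt for Mirlet7c-1 with Mirlet7c-2, 23 nt for Mirlet7a-2 with Mirlet7a-1 and 17 nt for Mirlet7e. The 4 genes with 23 or 24 nt had means of 94.5 to 225 CPM, and the 5 others had means of 1082 to 34918 CPM. Over all detected genes the split was made at a lower cut of 20 nt. The median was 160 CPM for the 69 genes that share at least 20 nt and 98.7 CPM for the 209 others. Above 1000 CPM were 13 of the 69, among them Mir378a (102710 CPM) and Mir23a (39436 CPM) at 20 nt, and 45 of the others. No summary was made at 23 nt, so these medians cannot be set against the values of the clusters' genes. Among detected genes that share 23 nt or more, the highest mean was that of Mir16-1, at 1338 CPM. The next was that of Mir128-1, at 655 CPM. How many reads of Mir125b-1 and Mir125b-2 aligned to several places was not tested, because the files give such reads only as a total.

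**Figure D3:**
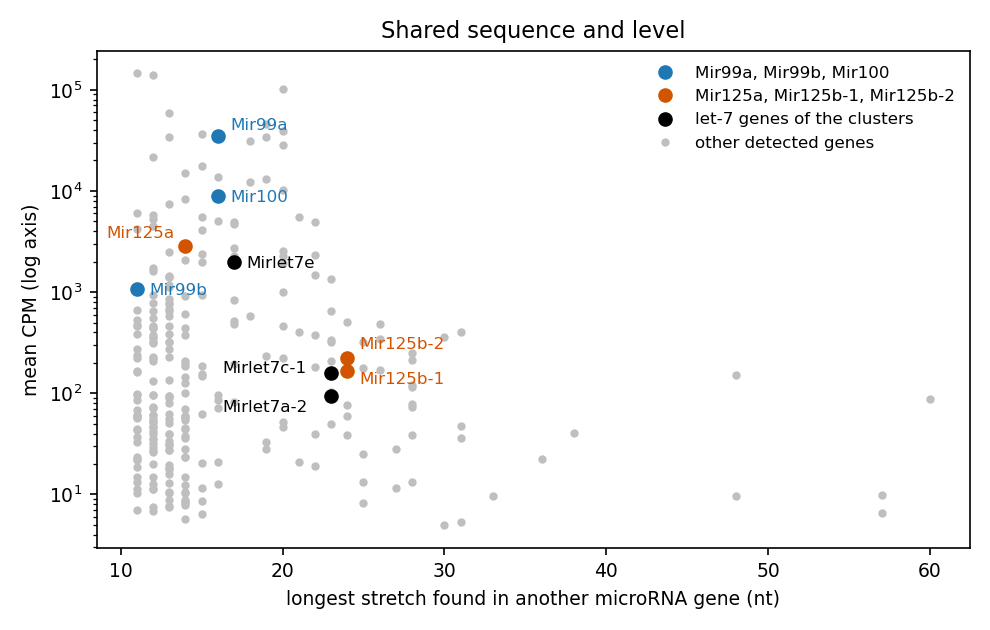
Mean CPM on a log axis against the longest stretch in nt that a gene has in common with another, non-overlapping microRNA gene, for all 278 detected genes. Mir125b-1, Mir125b-2, Mirlet7c-1 and Mirlet7a-2 lie at 23 or 24 nt with 94.5 to 225 CPM, and the other members and Mirlet7e at 11 to 17 nt with 1082 CPM or more.

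Genes of 1 cluster were counted at very different levels. The whole of miR-125b-5p and of let-7c-5p occurs in 2 microRNA genes each, the latter in Mirlet7c-1 and Mirlet7c-2. Mirlet7a-2 shares 23 nt with Mirlet7a-1. The counts of these low partners on chromosomes 16 and 9 may therefore miss reads, whose number was not tested. On chromosome 16, Mir99a made up 98.8% of the counts of its cluster in replicate 2 and 98.95% in replicate 1. It had 139 counts per count of Mir125b-2 in replicate 2 and 168 in replicate 1, and 223 and 215 counts per count of Mirlet7c-1, which had 286 and 381 counts. On chromosome 9, Mir100 made up 97.2% and 97.1%, with 58.7 and 49.9 counts per count of Mir125b-1. Its let-7 partner Mirlet7a-2 had 223 and 179 counts.

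The chromosome 17 cluster, whose mature products each occurred whole in 1 microRNA gene only, was more even. Mir125a made up 43.8% of its counts in replicate 2 and 50.3% in replicate 1, Mirlet7e 35.8% and 32.7%, and Mir99b 20.4% and 17.01%. Mir125a was thus the highest of this cluster in both libraries. Mirlet7e had 3732 and 4623 own-strand counts and 0 counts in the column for either strand. It is covered by the microRNA gene Gm25927 on the other strand, and the members had no such difference between columns.

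**Figure D4:**
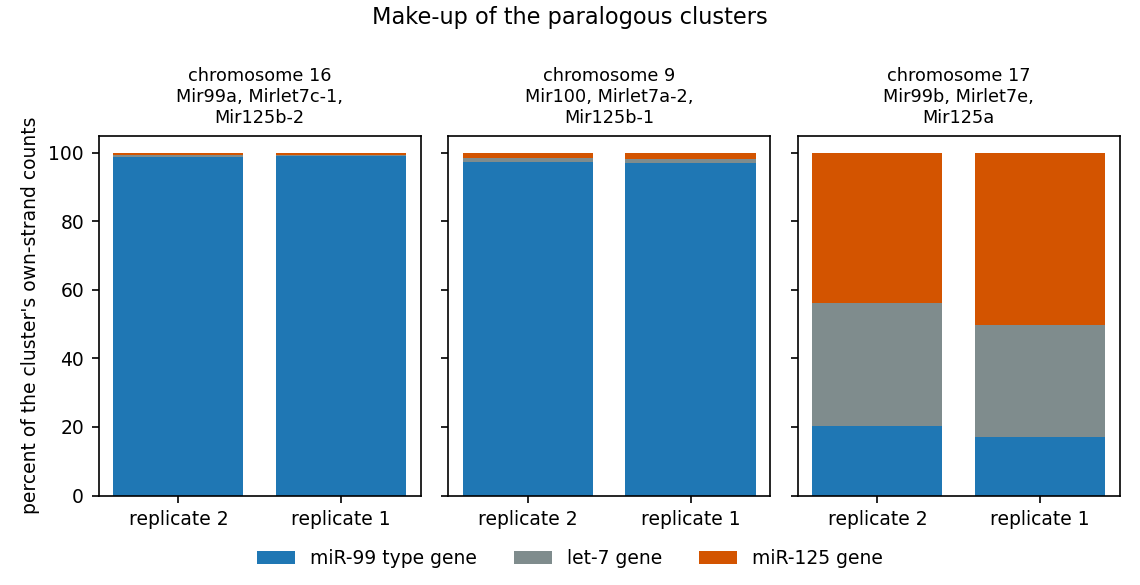
Percent of a cluster's own-strand counts held by each of its genes, with replicate 2 left of replicate 1 in each panel. Reads that aligned to several places are not in these counts. Mir99a and Mir100 hold over 97% of their clusters in both libraries, while on chromosome 17 Mir125a holds 43.8% and 50.3%, Mirlet7e 35.8% and 32.7%, and Mir99b 20.4% and 17.01%.

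Each gene was next set side by side in both libraries, a comparison of these libraries and not of conditions. With library sizes scaled by TMM in edgeR, no member passed the test at 2-fold or more (two-sided conditional exact binomial test, Benjamini-Hochberg adjustment over 278 genes). Of all detected genes, 11.9% were called in either direction by this rule, and 9.35% were called lower in replicate 2. Without a fold minimum, all 6 members passed an adjusted p under 0.05 and were lower in replicate 2, which held for 30.6% of all detected genes. All 6 log2 ratios were below 0, as were 51.1% of those of all genes, although with DESeq2 size factors the ratio of Mir100 was above 0 (0.048). With that scaling, which moved all ratios up by 0.12, Mir125b-1 and Mir125b-2 no longer passed, at adjusted exact binomial p of 0.136 and 0.103. The members' median log2 ratio, replicate 2 over replicate 1, was −0.34 with TMM, beside −0.03 over all detected genes.

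The members differed in size of change. Mir125a had the largest, with a log2 ratio of −0.84 (SE 0.027 from counting error), and was past 1.5-fold. Mir99a was not with TMM, but with library totals alone its log2 ratio of −0.60 was past 1.5-fold as well. With TMM, Mir99a followed at −0.56 (SE 0.0076) and Mir99b at −0.38 (SE 0.043). Mir125b-1 and Mir125b-2 had close values, −0.31 (SE 0.110) and −0.29 (SE 0.0939), with adjusted exact binomial p of 0.0108 and 0.00411. Mir100 was nearly level, at −0.072 (SE 0.0149), a value that is above 0 with DESeq2 size factors.

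The test sets these ratios against counting error only. A spread between animals could not be estimated apart from the difference itself, since there are only 2 libraries of 1 group. Markers of smooth muscle were also lower in replicate 2, at 9.73% against 20.3% of counts, as were those of nerve and glia, at 0.0859% against 0.307%, of red cells, at 0.0460% against 0.0787%, and of leukocytes, at 0.246% against 0.315%. Markers of striated muscle were higher in replicate 2, at 4.65% against 2.79%, and of endothelium, at 15.7% against 12.1%, and those of fibroblasts were at 0.151% against 0.149%. Genes of 1 list did not all follow its sum. Leukocyte Mir223 and Mir142 had log2 ratios with TMM of −1.53 and −1.33, but Mir150 and Mir155 of 0.03 and 0.14. Fibroblast Mir199b and Mir199a-2 had −1.67 and −0.17, and Mir214 had 0.14. Of nerve and glia, only Mir338 was detected. The part of these markers in the members' ratios was not tested.

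**Figure D5:**
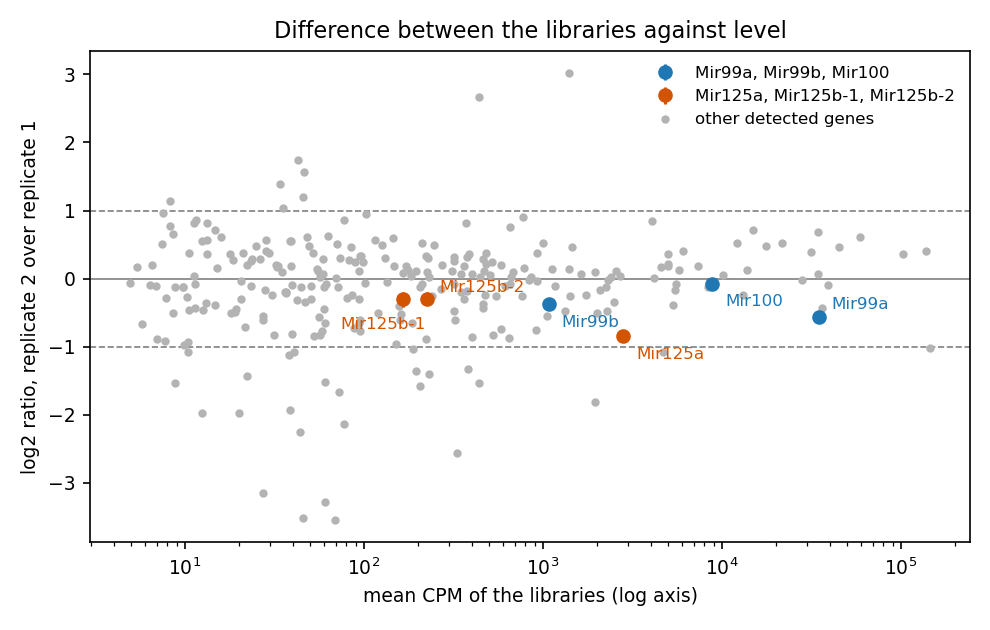
Log2 ratio of replicate 2 over replicate 1, scaled by TMM, against mean CPM on a log axis for the 278 detected genes. Coloured points are the members, with bars of 1 SE from counting error that are mostly smaller than the points, and dashed lines mark 2-fold; the members lie between −0.84 and −0.072.

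Ratios within a library need no scaling. With 1 pair of libraries, an interval that includes 0 does not show that 2 genes vary together. Mir125b-2 had 1.37 counts per count of Mir125b-1 in replicate 2 and 1.36 in replicate 1, a log2 difference of 0.01 with a 95% interval of −0.27 to 0.30 from counting error. Mir99a had 223 and 215 counts per count of Mirlet7c-1, its neighbour at 656 bp, and the interval of that log2 difference, −0.17 to 0.27, also included 0. So did that of Mir100 over Mirlet7a-2, −0.48 to 0.09, although the log2 ratios of these genes with TMM were −0.072 and 0.12. Mir99a had 3.25 counts per count of Mir100 in replicate 2 and 4.58 in replicate 1. On the log2 scale this ratio was lower in replicate 2 by 0.49, with a difference of −0.49 (95% interval −0.52 to −0.46).

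Cluster partners did not all keep their ratio. Mir125a had 2.15 counts per count of Mir99b in replicate 2 and 2.96 in replicate 1, a log2 difference of −0.46 (95% interval −0.56 to −0.36), although the genes are 692 bp apart at most. Mirlet7e, which lies between them, had 1.75 and 1.92 counts per count of Mir99b, a difference of −0.13 (−0.24 to −0.03). Mir99a over Mir125b-2 differed by −0.27 (−0.46 to −0.09), and Mir100 over Mir125b-1 by 0.23 (0.02 to 0.45). The largest difference of the ratios computed was with a gene of another family, since Mir10b had 0.730 counts per count of Mir99a in replicate 2 and 0.355 in replicate 1. Its log2 difference was 1.04 (95% interval 1.02 to 1.07). With 1 pair of libraries, no spread between animals stands behind these intervals.

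The let-7 family was the larger partner, at 12.8% of counts in replicate 2 and 10.95% in replicate 1 over 12 genes. Some of these genes, among them Mirlet7c-1 and Mirlet7a-2, share 22 to 26 nt with another microRNA gene. Reads of these stretches may be missing from the let-7 shares given here, and their number was not tested. Without a fold minimum, 4 genes of the let-7 family were higher and 4 lower in replicate 2, and none passed at 2-fold. Over all detected genes 24.8% were higher and 30.6% lower without a fold minimum. The let-7 genes in the members' clusters held 0.185% and 0.266% of all counts. Of these, Mirlet7c-1 and Mirlet7e were lower in replicate 2 without a fold minimum, by log2 ratios of −0.61 and −0.51, while Mirlet7a-2 had a ratio of 0.12 (adjusted exact binomial p = 0.513). Of the miR-10 genes, Mir10b had a log2 ratio of 0.48 and Mir10a of −0.09.

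By distance over the log2 CPM of both libraries, the detected gene nearest to Mir99a was Mir21a, at 30322 and 42024 CPM (distance 0.126). Mir29a was nearest to Mir100 at 7930 and 8827 CPM (distance 0.121), and Mir434 to Mir99b at 848 and 1266 CPM (distance 0.136). Mir15a was nearest to Mir125a at 2184 and 2844 CPM, with the largest distance, 0.385. Mir329 was nearest to Mir125b-1 (distance 0.135) and Mir132 to Mir125b-2 (distance 0.144). With 2 libraries, such nearness describes a level and a ratio only.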

How the data were processed

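For every microRNA gene the authors deposited unnormalized read counts for either strand, the own strand and the opposite strand. The assembly is mm10 with GENCODE release 21, per the deposited notes. Aligner and counter names were not given in the sources used here. All 2202 identifiers matched the annotation. Own-strand counts were 15.9% of the reads listed in replicate 2 and 20.7% in replicate 1. The remainder, in rows that name no gene, entered neither library sizes nor tests.

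CPM is own-strand counts over their total. Genes with at least 10 counts in each library were tested by a conditional exact binomial test, two-sided, with library sizes scaled by TMM (edgeR 4.0.16, R 4.3.3), with Benjamini-Hochberg adjustment, and called at an adjusted p under 0.05 and 2-fold. A prior of 0.5 counts enters each log2 ratio. The test was checked on simulated counts drawn with counting error alone. That check therefore does not cover false calls from any further spread between libraries. Alternatives used DESeq2 1.42.0 size factors, other filters, strands and denominators. The scripts ran in Python 3.11.15 with scipy 1.17.1, pandas 2.3.3 and matplotlib 3.10.9.

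Named genes were the members, their let-7 cluster partners, Mir10a, Mir10b and the detected gene nearest to each member. Mir351, Mir6394 and Mir6367 were added for their seed, and Mir378a and Mir23a for their shared stretch. Mir126a and the other named genes of the cell type lists were added as markers. The members, lists and tests were chosen with earlier results of these data known. Shared stretches were sought in the GENCODE transcripts of microRNA genes only, not over the genome.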

Additional observations from a re-analysis of the deposited data

Results flagged for a closer look

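Reads that aligned to several places lie outside the gene counts and made up 72.33% of the reads listed in replicate 2 and 70.07% in replicate 1. They are listed here because they were not analysed by gene and because Mir125b-1 and Mir125b-2 share the whole of miR-125b-5p. Their part in the low counts of these genes was not tested.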

How the results depend on the processing

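With reads of either strand, the share of the 6 members was 6.53% and that of Mir99a, Mir99b and Mir100 6.10%, from the same counts over a smaller total. Over all reads listed, the shares were 0.902%, 0.841% and, for the miR-125 genes, 0.0610%, by the larger denominator. Leaving out 1 library left 3.96% to 5.66% for the members, as a value with no test, and the members kept their order. DESeq2 size factors moved every log2 ratio up by 0.12 and turned that of Mir100 to 0.048, with 5 of 6 members then below 0. Without a fold minimum 154 genes and 6 members were called, at the unchanged ratios of −0.56 (Mir99a), −0.38 (Mir99b), −0.072 (Mir100), −0.84 (Mir125a), −0.31 (Mir125b-1) and −0.29 (Mir125b-2). A 1.5-fold minimum called 67 genes and 1 member, Mir125a. A minimum of 50 counts called 18 genes, as fewer genes were tested, and the edgeR exact test 7 with a dispersion taken from these same libraries, so that it is no independent check; neither called a member. Under the other alternatives 22 to 48 genes and no member were called. Ratios to Mirlet7e had no value on either strand, where its count is 0. No paired analysis was possible because there is 1 group. Depth limits Mir125b-1 and Mir125b-2 most, with 333 to 488 counts.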
